A study of Mus musculus with 8 samples.

Results

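The genes described here are 8 surface proteins that are used, singly or in pairs, to sort stem-like or tumour-initiating cells: Cd44, Cd24a, Prom1, Thy1, Ly6a, Cd9, Cd81 and Cd63. They were chosen by name, with earlier results of these data known. Of the 8, 7 have a row among the 16647 gene rows of the deposited single-cell table. Thy1 was not analysed here. The cells are Tri-PyMT cells, a cultured mouse mammary tumour line from an animal that carried 3 alleles written MMTV-PyMT:Fsp1-cre:Rosa26mT/mG. All cells of both groups share this genotype and the same medium (DMEM with 10% FBS), and no treatment separates them. Sorting by fluorescence gave an RFP+ and a GFP+ population, and each was profiled by Drop-seq, in which single cells are captured in droplets with barcoded beads. Each population has 2 libraries, each sequenced on 2 lanes, which the labels list as 8 samples, 4 per population. The library is the replicate, and n = 2 per population throughout. The MMTV promoter drives the PyMT oncogene in mammary epithelium. Cre is under the Fsp1 (S100a4) promoter, so the colour records whether that promoter was ever active enough to recombine the reporter and says nothing direct about the present state of a cell. How many animals, tumours or clones the line descends from, and whether the libraries came from separate cultures, is not stated in the labels. A p-value therefore sets a difference against the scatter of these libraries, which edgeR shares in part across genes. That scatter may be technical.

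Cd44 is the main cell-surface receptor for hyaluronan, and Cd24a is a small mucin-like protein held in the membrane by a lipid (GPI) anchor. In human breast cancer, cells with much CD44 and little CD24 protein on their surface were the first to be sorted as tumour-initiating, and cells that pass through an epithelial-to-mesenchymal transition often take on that profile. In mouse mammary tissue CD24 protein marks epithelial cells, Ly6a (Sca-1), another GPI-anchored protein, separates subsets of luminal cells and of progenitors, and Prom1 (CD133) and Thy1 (CD90) are used with them. Cd9, Cd81 and Cd63 are tetraspanins, membrane proteins that gather integrins and other partners into patches. Cd9 and Cd81 sit mainly at the cell surface and Cd63 mainly in late endosomes, and all are used as markers of exosomes. Protein on the surface was not measured in this study. All values below are transcript counts.

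The table holds 7400 cells, of which 7390 were used. Libraries held 1597 to 1998 cells, 2550319 to 3081009 counts and a median of 1166 to 1358 counts per cell, and no cell barcode was shared between libraries. Levels are CPM (a gene's counts as parts of a library's total, rescaled so that libraries compare), unless stated otherwise. The reporter rows go against the group labels. CUSTOM_RFP stood at 132 and 137 CPM in the RFP+-labelled libraries and at 2943 and 3053 CPM in the GFP+-labelled ones, while CUSTOM_GFP stood at 612 and 590 against 99.7 and 104 CPM. S100a4, whose promoter drives Cre, was at 648 and 676 CPM in the RFP+-labelled libraries and at 1843 and 2114 CPM in the GFP+-labelled ones. The groups are therefore called by their labels, and every direction below is that of the GFP+-labelled libraries over the RFP+-labelled ones. The libraries labelled RFP+ were the more epithelial: 34 epithelial genes summed to 3855 and 3906 CPM in them and to 1915 and 1762 CPM in the others, and 35 mesenchymal genes to 4056 and 3910 against 7245 and 7607 CPM. Markers of other cells were close to nothing in every library, with sums of 4.62 to 12.0 CPM over 7 immune, 3.25 to 6.36 CPM over 5 endothelial, 6.02 to 19.2 CPM over 6 fibroblast and 0 to 0.325 CPM over 2 erythroid genes. Lyz2, Pecam1 in 3 libraries and Ptprc in 3 libraries were at 0. Mitochondrially encoded genes took 0.664% and 0.644% of counts in the RFP+-labelled libraries and 0.403% and 0.378% in the GFP+-labelled ones.

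Cd24a was lower and Cd63 higher in the GFP+-labelled libraries, and Cd44, Ly6a and Cd9 did not pass the test. Of the 6 members above the filter on low counts, 1 rose, 2 fell (Cd24a and Cd81) and 3 did not pass edgeR's quasi-likelihood test at an adjusted p of 0.05. Across all 7595 genes tested 2319 passed, which is 30.5%, so 3 of 6 members is not far from the share of all genes. The members' median log2 fold was -0.15, beside 0.00 over all genes tested. Only Prom1 was left out by the filter.

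Cd24a (chromosome 10, 43578284 to 43584265 on GRCm38, plus strand) stood at 628 and 596 CPM in the RFP+-labelled libraries and at 485 and 482 CPM in the GFP+-labelled ones. The populations did not overlap, and the gap was wider than the difference between libraries of either one. The means were 612 ± 23.2 and 483 ± 2.16 CPM (SD, n = 2), 1.28-fold lower in the GFP+-labelled libraries, with a log2 fold of -0.35 ± 0.056 (SE) and an edgeR adjusted p of 3.29e-06. It passed in all 13 alternative settings tried, between -0.38 and -0.31. By its p it ranked 284 of 7595 genes, and by the size of its fold 2235. Of its 50-base runs, 3.90% also occur in the gene Gm6212, so a small part of its reads could be assigned to either.

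Cd44 (chromosome 2, 102811141 to 102901665, minus strand), the hyaluronan receptor, stood at 168 and 158 CPM against 155 and 134 CPM. Each GFP+-labelled library was below each RFP+-labelled one, by a margin smaller than the spread of the GFP+-labelled libraries. The log2 fold was -0.19 ± 0.081 (SE), and the edgeR adjusted p of 0.0716 missed the threshold. The call depended on the setting. Cd44 passed with offsets for transcript length and GC content (-0.38, adjusted p 5.85e-05) and without the first GFP+-labelled library (-0.29, adjusted p 0.0301), and the fold was -0.10 without the second. Nothing in these values shows a higher Cd44 in the more mesenchymal libraries. The ratio of Cd24a to Cd44 counts was 3.74 and 3.77 in the RFP+-labelled libraries and 3.13 and 3.60 in the GFP+-labelled ones, with no overlap and an exact two-sided permutation p of 0.33, the smallest that 2 against 2 libraries allow. The ratio compares libraries with each other and not the abundance of the genes, whose transcripts differ in length.

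Ly6a (chromosome 15, 74994877 to 74998031, minus strand), the stem cell antigen Sca-1, stood at 219 and 209 CPM against 243 and 224 CPM. The log2 fold of 0.11 ± 0.069 (SE) did not pass (edgeR adjusted p 0.243), although with the length and GC offsets it did (0.21, adjusted p 0.0217). Since Cd24a fell, the GFP+-labelled libraries held 0.501 and 0.464 Ly6a counts per Cd24a count and the others 0.349 and 0.351, again at the smallest possible exact permutation p of 0.33. Of the 50-base runs of Ly6a, 10.0% are shared with Ly6c1, Ly6c2, Ly6i or I830127L07Rik, so some of its reads could belong to these neighbours in the family. Prom1 (chromosome 5, 43993620 to 44102032, minus strand) was all but undetected. It had 2 counts in the second RFP+-labelled library and 0 in each of the others, where 3 counts would be 0.974 to 1.18 CPM. Neither population was above that floor, so no fold is given.

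The tetraspanins moved in different directions. Cd63 (chromosome 10, 128900989 to 128912822, plus strand), the endosomal one, stood at 2486 and 2465 CPM in the RFP+-labelled libraries and at 2952 and 3051 CPM in the GFP+-labelled ones, a log2 fold of 0.26 ± 0.047 (SE) with an edgeR adjusted p of 2.89e-05. It was 1.20-fold higher, without overlap, and passed in all 13 alternatives, between 0.23 and 0.37. Cd81 (chromosome 7, 143052739 to 143067934, plus strand), a partner of integrins, stood at 238 and 247 against 207 and 208 CPM. Its log2 fold was -0.24 ± 0.069 (SE), with an edgeR adjusted p of 0.00712. That call was the least stable of the 3 and was lost with DESeq2 (adjusted p 0.177), at equal depth per cell (0.0922), with the length and GC offsets (0.214, a log2 fold of -0.12) and without the second RFP+-labelled library (0.0628). Cd9 (chromosome 6, 125460266 to 125494791, minus strand) stood at 540 and 518 against 518 and 468 CPM, and its fold of -0.12 ± 0.058 (SE) did not pass (edgeR adjusted p 0.125), except without the first GFP+-labelled library (-0.18, adjusted p 0.0428). The number of Cd63 counts per Cd9 count was 4.60 and 4.76 in the RFP+-labelled libraries and 5.70 and 6.52 in the GFP+-labelled ones (exact permutation p 0.33). Of the 50-base runs of Cd63, 36.5% are shared with the pseudogene Cd63-ps, and 1.19% of those of Cd9 with Cd9-ps. How reads that fit both were counted is not given in the sources used here.

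**Figure D1:**
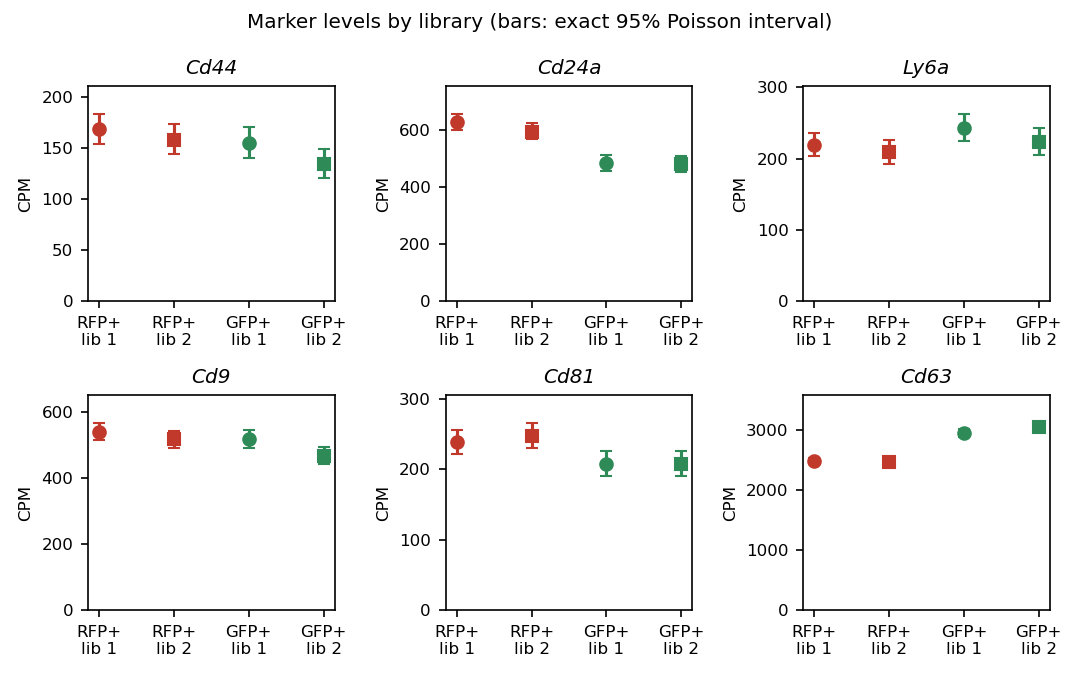
CPM (y axis, from 0) of 6 surface markers in each of the 4 libraries (x axis), with exact 95% Poisson intervals that cover counting error only. Cd24a and Cd81 were lower and Cd63 higher in both GFP+-labelled libraries, at 485 and 482, 207 and 208, and 2952 and 3051 CPM.

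The promoters of the tetraspanins are shown because these genes of 1 family parted between the populations. The sequences are RefSeq's for GRCm38.p6, from 250 bases before to 50 after an annotated start, 5′ to 3′. Capitals mark the motifs searched on both strands: the E-box CACCTG that Snail and Zeb factors bind, the GC box GGGCGG of Sp factors, the TATA box letters TATAAA, and the AP-1 site TGACTCA, each also as its reverse complement. The Cd81 window is chr7:143052500-143052799 on the plus strand, that of Cd63 chr10:128909095-128909394 on the plus strand, inside the longer GENCODE gene model, and that of Cd9 chr6:125494711-125495010 on the minus strand.
Cd81: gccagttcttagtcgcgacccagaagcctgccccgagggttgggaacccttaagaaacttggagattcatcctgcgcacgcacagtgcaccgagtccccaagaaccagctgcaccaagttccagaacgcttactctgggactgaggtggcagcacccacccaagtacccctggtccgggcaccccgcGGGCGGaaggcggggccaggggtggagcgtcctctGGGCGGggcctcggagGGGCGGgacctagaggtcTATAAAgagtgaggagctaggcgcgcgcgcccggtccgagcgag
Cd63: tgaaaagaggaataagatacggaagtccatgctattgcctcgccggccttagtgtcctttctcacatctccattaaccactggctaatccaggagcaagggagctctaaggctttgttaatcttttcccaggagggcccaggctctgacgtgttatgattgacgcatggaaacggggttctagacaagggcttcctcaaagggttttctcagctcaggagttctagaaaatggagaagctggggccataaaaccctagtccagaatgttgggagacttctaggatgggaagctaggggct
Cd9: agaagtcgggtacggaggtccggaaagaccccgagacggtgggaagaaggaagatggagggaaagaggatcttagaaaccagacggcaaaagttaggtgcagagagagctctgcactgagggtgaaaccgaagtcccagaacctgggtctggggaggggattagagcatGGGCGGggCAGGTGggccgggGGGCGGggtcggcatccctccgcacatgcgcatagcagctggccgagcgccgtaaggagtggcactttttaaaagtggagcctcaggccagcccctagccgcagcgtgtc
The Cd81 window, with 65.7% GC, holds 3 GC boxes before the annotated start and a TATAAA that begins 6 bases after it. The Cd9 window, with 61.3% GC, holds 2 GC boxes and 1 E-box, and the Cd63 window, with 49.3% GC, holds none of the 4 motifs. Over 32851 promoter windows of the same length, 35.7% hold a GC box, 20.2% the E-box, 13.6% TATAAA and 5.20% the AP-1 letters. The 2 other members with an entry are Cd44, whose window (chr2:102901616-102901915) has 1 GC box after the start and no E-box, and Prom1. These matches are descriptions of the letters and were not tested against the counts.

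A transcript at these levels is seen in only some cells, so shares of cells were read after thinning each cell to 1000 counts and leaving out shallower cells, which kept 1233 to 1545 cells per library (68.6% to 88.9%). Cd24a was carried, with at least 1 count, by 46.2% and 43.9% of cells in the RFP+-labelled libraries and by 39.5% and 38.6% in the GFP+-labelled ones. Cd44 was carried by 14.9% and 14.3% against 14.6% and 12.2%. The share with Cd24a was thus lower in both GFP+-labelled libraries, as its level was, while the Cd44 shares overlapped. Ly6a was carried by 15.0% and 17.8% against 19.3% and 17.0%, Cd9 by 41.3% and 38.7% against 37.3% and 36.5%, and Cd81 by 20.1% and 22.6% against 19.0% and 18.7%. Cd63 was carried by 90.2% and 90.7% against 93.7% and 95.2%. Exact permutation p-values were 0.33 for Cd24a, Cd9, Cd81 and Cd63, whose libraries did not overlap, and 0.667 for Cd44 and Ly6a. Without thinning, Cd24a was carried by 56.7% and 52.6% against 51.1% and 45.8% and Cd44 by 21.5% and 19.7% against 20.7% and 16.8%. The Cd9 shares without thinning overlapped, at 52.0% and 49.7% against 51.4% and 43.4% (exact permutation p 0.667). Prom1 was carried by 1 thinned cell in all. In the first RFP+-labelled library, with 0 of 1545 cells, the exact 95% interval reached 0.238% of cells with a count at this depth. That limit says nothing of cells that express the gene below 1 count in 1000.

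No cell type in these cultures is known to lack these genes, so no background share could be read for them, and only the reporters are given. At the same depth, the reporter that was high in the other population was carried by 11.9% and 12.7% of cells in the RFP+-labelled libraries and by 9.51% and 9.08% in the GFP+-labelled ones. Cd44 in all libraries and Ly6a in the first RFP+-labelled one lay only a little above these shares. Where they were high, the reporters averaged 2998 CPM (CUSTOM_RFP) and 601 CPM (CUSTOM_GFP), well above Cd44 and Ly6a. Free RNA depends on a transcript's abundance, so these shares give no background for either gene. Whether a count in a given cell came from free RNA was not tested. Cells that carry a member are therefore cells with a count, and are not shown to be the cells that express it. The scatter of counts between cells was close to that of random sampling for 5 members, with a variance over the mean from 0.978 for Cd81 to 1.19 for Cd24a. Ly6a stood apart in every library, at 1.61, 1.34, 1.31 and 1.38, and its counts were gathered in fewer cells.

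The classes drawn by Cd44 and Cd24a were read at the same depth. Cells with Cd44 and no Cd24a, the transcript counterpart of the CD44-high CD24-low gate, made up 8.16% and 8.50% of cells in the RFP+-labelled libraries and 8.60% and 6.97% in the GFP+-labelled ones, and the populations overlapped. Cells with Cd24a alone made up 39.5% and 38.0% against 33.5% and 33.4%. Cells with both made up 6.73% and 5.83% against 5.99% and 5.19%, and cells with neither 45.6% and 47.6% against 51.9% and 54.4%. The populations therefore parted in the Cd24a-only class, with means of 38.8 ± 1.04% and 33.4 ± 0.0423% (SD, n = 2) and a difference of -5.31 percentage points, and in the class with neither, which was 6.54 points larger. Each had an exact permutation p of 0.33. The Cd44-only difference was -0.54 points (exact permutation p of 1), and it was between -1.35 and 0.268 points when each library was left out in turn. With a minimum of 2 counts the Cd44-only class was 1.40 ± 0.490% against 0.823 ± 0.132% (SD, n = 2), without overlap (exact permutation p of 0.33). The class edges lie at 1 count, so the classes are ranges of sparse counts and not cell types.

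**Figure D2:**
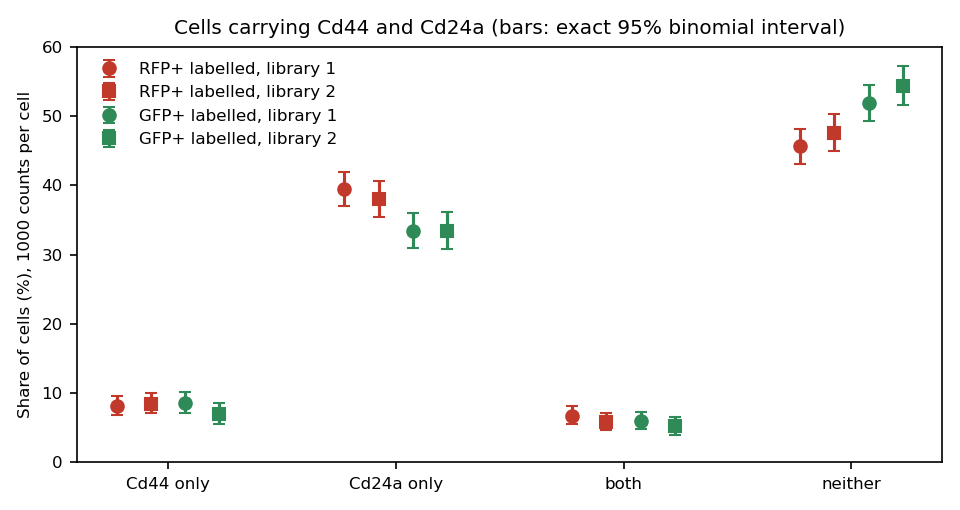
Share of cells thinned to 1000 counts (y axis, %) that carry Cd44 only, Cd24a only, both or neither (x axis), per library, with exact 95% binomial intervals that cover counting error only. Cd24a-only cells are 39.5% and 38.0% in the RFP+-labelled libraries and 33.5% and 33.4% in the GFP+-labelled ones, and the Cd44-only shares overlap.

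Carriage of Cd44 and of Cd24a in the same cell was close to the product of their shares. The share carrying both was 0.978, 0.928, 1.04 and 1.11 times the product of the separate shares in the 4 libraries, in the order RFP+ 1, RFP+ 2, GFP+ 1 and GFP+ 2. Among cells with Cd44, 45.2%, 40.7%, 41.1% and 42.7% carried Cd24a, and among cells without Cd44 46.4%, 44.4%, 39.2% and 38.0% did. Without thinning the same ratio was 1.07 to 1.14, with another thinning seed 0.836 to 1.13, at 500 counts per cell 0.750 to 0.948 and at 2000 counts 0.834 to 1.08, so its side of 1 in a library depended on depth and seed. Over all 15 pairs of the 6 members the ratio lay between 0.854 and 1.23 per library. Most cells carried 1 to 3 members, and 1 to 4 cells per library carried all 6. In sparse counts such ratios are a description and no finding.

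No gene was found that separates Cd44-only from Cd24a-only cells at this depth. With library as a covariate, 0 of 7591 genes (0%) passed edgeR's test, and DESeq2 called 0. An unadjusted p under 0.05 was held by 391 genes, about the number that this threshold gives when no gene differs. Summed epithelial genes stood at 4175 and 4190 CPM in Cd44-only cells and at 3864 and 4043 CPM in Cd24a-only cells of the RFP+-labelled libraries, and at 1697 and 1814 against 2027 and 1816 CPM in the GFP+-labelled ones. The order of the classes thus differed between the libraries. Ly6a had a log2 fold of 0.29 ± 0.16 (SE) in Cd44-only over Cd24a-only cells and did not pass (edgeR adjusted p 0.939), and neither did Cd63, Cd9 or Cd81.

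Within each library, Ly6a was lower in the cells with more mesenchymal and fewer epithelial transcripts. Thinned cells of a library were ranked by log2 of mesenchymal over epithelial counts (each plus 0.5) and cut into 5 equal bins, and bin 5, the most mesenchymal, was compared with bin 1, the most epithelial, with library as a covariate. The bins do not cover like scores in the 2 populations. The median score of bin 1 was -2.12 in both RFP+-labelled libraries and -0.24 and 0 in the GFP+-labelled ones. That of bin 5 was 2.12 in both RFP+-labelled libraries and 4.25 in both GFP+-labelled ones. No member is among the genes that make the score, and those genes were left out of the test. Of 7450 genes 187 passed (2.51%), 92 higher and 95 lower. Of the 6 members tested, 1 fell and 5 did not pass.

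Ly6a went from 427 CPM in bin 1 to 84.1 CPM in bin 5 of the first RFP+-labelled library and from 323 to 158 CPM in the second. In the GFP+-labelled libraries it went from 504 to 145 and from 538 to 81.3 CPM. It was lower in bin 5 in 4 of 4 libraries, and no bin 5 value reached any bin 1 value. The log2 fold was -1.89 ± 0.13 (SE), 3.71-fold lower, with an edgeR adjusted p of 1.39e-41, rank 4 of 7450 genes by p, after Fth1, Spp1 and Epcam, and rank 36 by size of fold. The small p rests on a spread shared across genes that thinned counts keep close to counting error, and DESeq2 gave an adjusted p of 7.99e-05. The share of cells carrying Ly6a went from 24.6% to 7.12%, from 23.9% to 13.7%, from 35.9% to 13.1% and from 35.2% to 7.32%. The bin 5 shares lie from below to a little above that of the other population's reporter. That reporter is far more abundant where it is high, so its share sets no floor for Ly6a. The part of free RNA in bin 5 carriage was not tested. Most of the drop lay between bins 1 and 2 in the GFP+-labelled libraries, where bin 2 stood at 215 and 198 CPM.

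The drop in Ly6a was called in all 16 alternatives, between -2.78 and -1.47, with adjusted p from 1.26e-40 to 0.0019. The log2 fold was -1.63 ± 0.23 in the RFP+-labelled libraries alone and -2.15 ± 0.19 in the GFP+-labelled ones alone. The difference of these folds, -0.52 ± 0.30, did not pass (edgeR adjusted p 0.910), in a test that called 2 genes (0.0268%). These folds span different ranges of the score, so their difference does not compare like cells. In all libraries together the fold was -1.47 with the score made from keratins and Vim only. It was -1.65 from epithelial and -1.61 from mesenchymal genes only, -1.66 without the secreted proteins Lcn2 and Wfdc2, and -1.78 in cells with no count of the other population's reporter. At 2000 counts per cell, which leaves 263 to 366 cells per library, it was -2.78. The call was thus kept with either end of the score alone, without the secretory genes and without each library.

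The other members stayed close to level along the score. Cd24a had a log2 fold of -0.06 ± 0.088 (SE, edgeR adjusted p 0.868), Cd44 of -0.04 ± 0.16 (0.977), Cd9 of 0.08 ± 0.093 (0.820) and Cd81 of 0.11 ± 0.14 (0.854). Cd63 had 0.14 ± 0.045 (0.0729) and passed in 2 of 16 alternatives. Cd24a stood at 560, 635, 553 and 526 CPM in bin 1 and at 576, 616, 438 and 516 CPM in bin 5 of the 4 libraries. It was lower in bin 5 in 3 of 4 libraries, most in the first GFP+-labelled one, and with the score from epithelial genes alone the fold was -0.23 (adjusted p 0.240). Cd44 stood at 191, 144, 141 and 142 CPM in bin 1 and at 142, 180, 148 and 122 CPM in bin 5, without a common direction. Cd9 and Cd81 passed only with the score from mesenchymal genes alone (0.39, adjusted p 0.0028, and 0.47, adjusted p 0.0229).

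**Figure D3:**
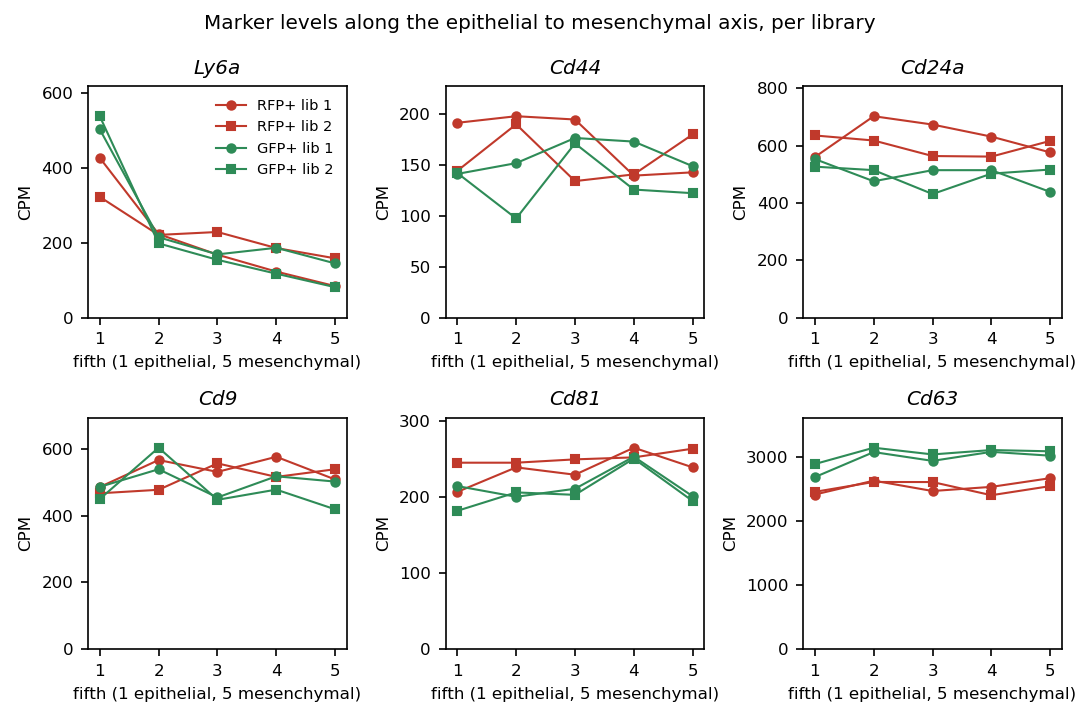
CPM (y axis, from 0) of 6 surface markers in 5 equal bins of cells ranked from most epithelial (1) to most mesenchymal (5) within each library (x axis). Points joined by a line belong to 1 of the 4 libraries. Bins of the same number cover different scores in the RFP+-labelled and the GFP+-labelled libraries. Ly6a drops from 323 to 538 CPM in bin 1 to 81.3 to 158 CPM in bin 5, and the other 5 stay near level.

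The genes that passed with Ly6a in the same test name its surroundings. Lower in bin 5 were Epcam (-2.01, adjusted p 1.25e-54), an epithelial adhesion protein that associates with tetraspanins, Ly6e (-0.66), a GPI-anchored relative of Ly6a, the galectin Lgals3 (-0.54), the basement membrane anchoring protein Lad1 (-1.36) and the chemokine Cxcl16 (-1.93). Higher were the ferritin heavy chain Fth1 (0.75), the secreted Cd44 ligand Spp1 (osteopontin, 0.86, adjusted p 3.34e-58), S100a6 (0.38), the metalloproteinase inhibitor Timp2 (0.41) and Tm4sf1 (0.35), a distant relative of the tetraspanins. All 10 had their direction in 4 of 4 libraries. Epcam went from a mean of 539 ± 99.2 to 131 ± 46.0 CPM and Spp1 from 1411 ± 413 to 2509 ± 440 CPM (SD over 4 libraries).

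Ly6a did not pass between populations, was lower in mesenchymal cells of each, and the GFP+-labelled population was the more mesenchymal. A higher Ly6a at equal score follows from these values, and the bins show it. Its size was read in cells of like score, from -1 to 1, a comparison added after these values were seen and not independent of them. This window held 737 and 675 cells of the RFP+-labelled libraries (47.7% and 47.4% of thinned cells) and 329 and 230 of the GFP+-labelled ones (23.2% and 18.7%). There Ly6a stood at 183 and 206 CPM in the RFP+-labelled libraries and at 374 and 474 CPM in the GFP+-labelled ones. The values did not overlap, and both GFP+-labelled libraries were well above the others. The log2 fold was 1.07 ± 0.14 (SE), 2.10-fold higher. Its p is not given, since the comparison was prompted by the difference it measures. Of 7297 genes tested in the window 329 passed (4.51%), with the genes that make the score kept in the test. The Ly6a fold lay between 0.92 and 1.27 in the 8 alternatives. These include each library left out, cells without the other reporter (1.01) and a score of -0.5 to 0.5 (1.26). The match was not complete: summed epithelial genes stood at 4003 and 3984 against 3641 and 3557 CPM and mesenchymal ones at 4049 and 3987 against 4404 and 4265 CPM, so the cells labelled GFP+ were the slightly more mesenchymal also within the window.

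Of the other members none passed in the window. Cd24a stood at 672 and 579 against 544 and 517 CPM, a log2 fold of -0.26 ± 0.11 (SE) with an edgeR adjusted p of 0.184. In cells without the other reporter it passed, at -0.39 (adjusted p 0.0356). Cd63 had 0.14 ± 0.069 (0.298), Cd81 -0.22 ± 0.16 (0.562), Cd9 -0.19 ± 0.12 (0.433) and Cd44 -0.17 ± 0.20 (0.754). The window holds fewer cells than the whole libraries, and the errors are accordingly larger. Genes that passed beside Ly6a were, among the higher, S100a4 (0.64) and the ferritin light chain Ftl1 (0.94), and among the lower, the mitochondrial rRNA mt-Rnr2 (-1.08) and Tm4sf1 (-0.61). S100a4 is one of the mesenchymal genes of the score, so its call is not independent of how the window's cells were chosen.

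**Figure D4:**
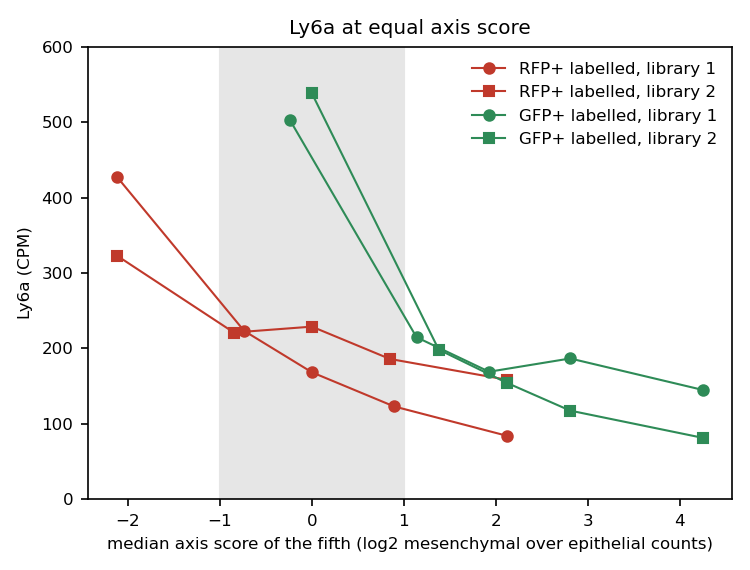
Ly6a CPM (y axis, from 0) against the median score (x axis, log2 of mesenchymal over epithelial counts) of each of the 5 bins of each library. Shading marks scores from -1 to 1, where the GFP+-labelled libraries lie at 374 and 474 CPM and the RFP+-labelled libraries at 183 and 206 CPM when all cells of the window are taken.

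Cells that carried a member were then compared with cells of the same library that did not, at equal depth, for the 6 members in turn, again a comparison added after seeing the data. Carriers of Ly6a differed in 10 of 7604 genes (0.132%). Higher were Wfdc2 (0.56), a secreted protease-inhibitor-like protein of epithelia, Epcam (0.72), Ly6e (0.40), the luminal keratin Krt7 (0.69) and Ly6c1, which shares sequence with Ly6a. Lower were Vim (-0.39), Fth1 (-0.28), S100a4 (-0.41), the matrix protein Sparc (-0.45) and Spp1 (-0.20). Wfdc2, Krt7, Vim, S100a4 and Sparc are genes of the score. Epcam, Ly6e, Ly6c1, Fth1 and Spp1 passed along the score in the same thinned cells. These calls restate the fall of Ly6a along the score and are not independent of it, so their p-values are not given. The calls for Ly6a numbered 8 to 10 when each library was left out. The 9 with a fold given had their direction in 4 of 4 libraries.

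Carriers of Cd44 differed in 6 of 7636 genes (0.0786%), of Cd24a in 7 of 7532 (0.0929%), of Cd9 in 39 of 7506 (0.52%), of Cd81 in 1 of 7587 (0.0132%) and of Cd63 in 2 of 7716 (0.0259%). With each library left out in turn these counts were 1 to 5 for Cd44, 1 to 7 for Cd24a, 7 to 39 for Cd9, 0 to 1 for Cd81 and 1 to 2 for Cd63. The count for Cd44 was 1 without either RFP+-labelled library, that for Cd24a 1 without the first GFP+-labelled one, and that for Cd9 7 without the first RFP+-labelled one, so these calls depended on single libraries. None of the calls for Cd44 is a gene of the epithelial or the mesenchymal list: higher were mt-Cytb (0.44), mt-Rnr2 (0.15), the chaperone Hspa5 (0.20) and the nuclear RNA Malat1 (0.16), lower the linker histone Hist1h1b (-0.19) and the gene model Gm26924. Carriers of Cd24a had more mt-Rnr2 (0.18, adjusted p 1.31e-09), mt-Rnr1 (0.31) and Fth1 (0.09) and less Hist1h1b (-0.15), Tpm3 (-0.14) and Ncl (-0.10). Carriers of Cd9 had more mt-Rnr2 (0.17), Spp1 (0.17) and Mfge8 (0.61), an exosome-associated milk fat globule protein, and less Ncl (-0.13), Ybx3 (-0.33) and Ezh2 (-0.31). They also had more Fth1 (0.10) and Vim (0.11), a mesenchymal gene of the score. The mitochondrial rRNA mt-Rnr2 was thus called higher in carriers of 4 members (Cd44, Cd24a, Cd9 and Cd81). In carriers of Cd63 its log2 fold was of like size, 0.16, without a call (edgeR adjusted p 0.691). In carriers of Ly6a its log2 fold was 0.03 (edgeR adjusted p 0.931). Median depth before thinning, in the order RFP+ 1, RFP+ 2, GFP+ 1 and GFP+ 2, was 1431, 1480.5, 1434 and 1504.5 counts in carriers of Cd44 and 1386, 1436, 1433.5 and 1357 in other cells. It was 1395.5, 1422, 1416 and 1401.5 counts in carriers of Cd9 and 1394, 1452, 1448 and 1362 in other cells, so that carriers of Cd9 were the shallower in 2 libraries. The part of mitochondrial RNA and of depth in these calls was not tested. No member passed the test in carriers of another member.

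The partners of these proteins moved between the populations without a common direction. Of all genes tested between the populations 30.5% passed. Of 13 tetraspanins tested, which include Cd9, Cd81 and Cd63, 2 rose (Cd63 and Tspan5), 2 fell (Cd81 and Tspan7) and 9 did not pass, with a median log2 fold of 0.01. Of 13 tetraspanin partners 3 rose and 5 fell. Those that rose were the laminin-receptor subunit Itga6 (59.2 ± 7.11 to 101 ± 5.81 CPM, SD, n = 2, log2 fold 0.75, adjusted p 5.49e-07), the protease Adam10 (103 ± 5.94 to 146 ± 11.3 CPM, 0.49) and the integrin subunit Itgb1 (1103 ± 30.3 to 1415 ± 43.7 CPM, 0.35). Epcam fell from 381 ± 11.7 to 218 ± 5.10 CPM (-0.82, adjusted p 2.02e-13), as did Cldn7, Hbegf, Itgb4 and Timp1. The integrin subunits thus parted, with Itgb4 lower and Itga6 and Itgb1 higher.

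Of 15 genes of hyaluronan metabolism and Cd44 partners, 5 rose, 3 fell and 7 did not pass. Spp1, a ligand of Cd44, rose from 1572 ± 112 to 2634 ± 52.2 CPM (0.73, adjusted p 2.56e-15), and Mmp14, a protease that sheds Cd44, from 98.0 ± 6.51 to 133 ± 5.32 CPM (0.43). The linkers of Cd44 to actin parted: Msn and Rdx rose and Ezr fell. Esrp1, the splicing factor that sets epithelial Cd44 isoforms, fell too. Counts per gene do not tell isoforms apart, so a change of Cd44 isoform was not analysed here. Of 11 GPI-anchored and Ly6 proteins 1 rose (Prnp, 0.54), 4 fell (Cd24a, Bst2, Plaur and Ly6e at -0.56) and 6 did not pass, with a median of -0.33. Along the score within libraries, where 2.51% of all genes passed, Ly6a, Ly6c1 and Ly6e fell and 8 of 11 did not pass. Of 15 mammary stem and progenitor genes, 6 rose and 5 fell: the drug efflux pump Abcg2 rose from 49.7 ± 3.59 to 84.5 ± 0.287 CPM (0.75), and the lipopolysaccharide co-receptor Cd14, a luminal progenitor marker, fell from 58.7 ± 7.36 to 27.8 ± 1.74 CPM (-1.09, adjusted p 1.06e-07). Shares of calls between populations ran from near the 30.5% of all genes for the tetraspanins to well above it for the stem and progenitor genes. The lists were chosen with earlier results known and were not tested as sets, so nothing particular to a list is read from these shares.

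Genes whose levels over the 4 libraries ran most like those of Cd44 were Tmem14c, Tcea1, Mtpn, Sdhc and Emp1, with a root mean square distance of centred log2(CPM + 1) from 0.00385 for Tmem14c to 0.0256 for Emp1, among 1914 genes. For Cd24a they were G3bp1, 1810022K09Rik, Gnb2l1, Chchd1 and Magoh, from 0.00796 to 0.0150. With 4 libraries in 2 populations, such likeness is a description of these libraries.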

How the data were processed

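Single cells of 2 sorted populations were profiled by Drop-seq, per the labels' protocols. The authors deposited 1 table of unnormalized counts for every gene and cell, in whole numbers up to 342. Per the submitters' processing notes the genome was GRCm38. Aligner, counter and any collapsing of molecular identifiers: not given in the sources used here. A gene row that holds no count (772 rows) stayed in the table. Column names tell the 4 libraries apart, with both lanes of a library pooled. Columns of no sample of the series numbered 0.

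Cells were used from 500 counts upward if less than 20% of these were mitochondrially encoded, which left out 10. Doublets were not removed. Libraries of a population differed beyond counting noise (chi-square per degree of freedom 1.36 and 1.41). Counts were summed per library, because cells are not replicates, and compared by the quasi-likelihood test of edgeR 4.0.16 (R 4.3.3) after TMM scaling, with Benjamini-Hochberg adjustment over all genes tested and a threshold of 0.05. Genes were tested with a mean of 10 CPM in either group and 20 counts in all. The SE is the size of the log2 fold divided by the root of F, and it rests on a dispersion shared across genes. For shares and comparisons within libraries cells were thinned to 1000 counts with a fixed seed. Intervals are exact at 95% and cover counting error only. Alternatives were DESeq2 1.42.0, other scalings, filters and depths, offsets for transcript length and GC content (GENCODE M21, 95.4% of tested genes matched), each library left out, and the library number as a block. The fits were tested on simulated data. Named genes are the members, up to 4 per list by size of fold with at least 50 CPM, up to 8 called genes per direction with at least 100 CPM within libraries, and the 5 nearest genes. Other genes named in counts of 5 or fewer were chosen after their values were seen. The members and lists were chosen with earlier results of these data known.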

Additional observations from a re-analysis of the deposited data

How the results depend on the processing

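The calls for Cd24a and Cd63 between populations and for Ly6a along the score held in every alternative run, and those for Cd44, Cd9, Cd81, Ly6a between populations and Cd63 along the score depended on the setting; the cause was not tested. The library numbers follow the order of the sample titles, and the labels do not say that they pair the libraries. Deviations of the first libraries from their population means correlated at 0.0194. With 2 libraries per population this is a single correlation, and it cannot settle whether the libraries pair. With the number as a replicate block 2476 genes were called in place of 2319, the Cd24a log2 fold was -0.35 and the Cd63 fold 0.26, and no member changed its call. Between populations DESeq2 called 734 genes and thinned cells gave 1490. Cd81 was not called with DESeq2 (-0.24), in thinned cells (-0.21) or with the length and GC offsets (-0.12), and with each library left out it lay between -0.27 and -0.20. With the offsets Cd44 (-0.38) and Ly6a (0.21) were called. With each library left out Cd44 lay between -0.29 and -0.10 and Cd9 between -0.18 and -0.058.

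The scores from other genes, the reporter, deepest-cell and offset settings along the score, the score window and the carrier comparisons were chosen after seeing the data. Along the score 187 genes became 94 at 2000 counts per cell, 29 in the RFP+-labelled libraries alone, 78 in the GFP+-labelled ones alone, 25 with DESeq2, 52 with keratins against Vim, 106 with epithelial genes alone and 71 to 122 with each library left out. Uncalled folds changed sign: Cd44 was 0.079 at 2000 counts per cell, 0.10 with mesenchymal genes alone, 0.015 without the 10% deepest cells and -0.19 to 0.11 with each library left out. Cd24a was 0.017 in the RFP+-labelled libraries alone, 0.034 with keratins against Vim, 0.0061 with mesenchymal genes alone and -0.11 to 0.0080 with each library left out. Cd9 was -0.11 at 2000 counts per cell, -0.00029 in the GFP+-labelled libraries alone, -0.17 with epithelial genes alone, -0.068 in cells without the other reporter and, called, 0.39 with mesenchymal genes alone. Cd81 was -0.086 at 2000 counts per cell, -0.14 with epithelial genes alone and, called, 0.47 with mesenchymal genes alone. Cd63 was called in cells without the other reporter (0.17) and with the offsets (0.19).

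Between Cd44-only and Cd24a-only cells, 1 gene was called at 2000 counts per cell and 5 without thinning. Ly6a was -0.41 at 2000 counts per cell. Cd9 was 0.026 and 0.012 in the RFP+-labelled and the GFP+-labelled libraries alone, 0.022 with DESeq2 and -0.053 to 0.045 with each library left out, and Cd81 was 0.047 in the GFP+-labelled libraries alone and -0.14 to 0.075 with each left out. In the score window 329 genes became 178 at scores from -0.5 to 0.5, 70 with DESeq2 and 24 to 151 with each library left out (24 without the first library labelled GFP+). Cd44 there lay between -0.39 and 0.035, and Cd24a was called at -0.39 in cells without the other reporter. Calls in carriers ranged, with each library left out, from 1 to 5 for Cd44, 1 to 7 for Cd24a, 7 to 39 for Cd9, 0 to 1 for Cd81 and 1 to 2 for Cd63. For Cd81 in all libraries 1 of 7587 genes was called, and 494 had an unadjusted p under 0.05, which is a looser threshold.

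The Cd24a-only difference was -6.80 points at 2000 counts per cell and -3.26 points with a minimum of 2 counts. The difference for both genes was -1.77 points at 2000 counts, -1.86 without thinning and -1.92 with another seed, and that for neither 9.34 points at 2000 counts and 4.00 with a minimum of 2 counts. Depth limits the cell classes: at 1000 counts per cell 1 count is 1000 CPM, above the level of all members but Cd63.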
